A study of Homo sapiens with 2 samples.

Results

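The 10 genes described here encode alpha and beta tubulins, which build the microtubule, a gamma tubulin, which starts it, and 1 regulator. They are the alpha tubulins TUBA1A, TUBA1B, TUBA1C and TUBA4A, the beta tubulins TUBB, TUBB2A, TUBB3 and TUBB6, the gamma tubulin TUBG1 and the tubulin-binding protein stathmin 1 (STMN1). They were found by symbol, and all 10 were among the 13137 genes of the table. The data were digital gene expression (DGE) libraries, in which a short sequence tag is counted for each captured mRNA, from A549, a human lung adenocarcinoma cell line. There were 2 libraries, 1 per condition, and no replicate. The library labelled shRNA-SOX2 came from A549-H1tetO-shRNA-SOX2 cells, which carry a hairpin against the transcription factor SOX2, and the shRNA-Con library came from A549-H1tetO-shRNA-Con cells, which carry a scrambled hairpin. In both lines the hairpin was delivered by lentivirus under the doxycycline-inducible H1TetO promoter, the cells were selected with puromycin, and RNA was taken after 4 days of doxycycline. The line with the SOX2 hairpin was a polyclone, so the libraries also compare separately infected and selected cell populations, and no culture without doxycycline was analysed here.

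The shRNA-SOX2-labelled library held 2093816 gene tags and the shRNA-Con library 2304184. The targeted gene was not lower in the shRNA-SOX2-labelled library: SOX2 had 23 tags there and 16 tags in the shRNA-Con library, a ratio of 1.58 (95% interval 0.80 to 3.20, counting error only). The column names abbreviate the samples: SC was read as shRNA-Con and S1 as the remaining sample, so every direction given here rests on that reading. With the columns exchanged, the ratio of TUBA1A would be 0.342 in place of 2.92, that of TUBG1 0.489 in place of 2.04, and that of TUBA1C 1.40 in place of 0.714. TUBA1A would then have the lowest ratio of the 10 genes in place of the highest. All 6 epithelial markers had tags: KRT8, KRT18 and KRT7 had 1606 or more in either library, CDH1 had 50 in each, KRT19 had 35 in shRNA-Con and 127 in the shRNA-SOX2-labelled library, and EPCAM had 8 and 4. Of these 6, KRT8 and KRT19 were higher past a false discovery rate of 0.001 and KRT18 and KRT7 lower, and the part of this in the tubulin values was not tested. Of 10 markers of blood, endothelial, fibroblast, red cell and liver cells, 4 had tags, with 51 tags in all in shRNA-Con and 50 in the shRNA-SOX2-labelled library. Most were of the fibroblast marker COL1A1, with 44 and 43 tags in that order, a count near that of CDH1. CD68 had 2 and 5, PTPRC 2 and 2, and PECAM1 3 and 0.

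Microtubules are hollow polymers of alpha and beta tubulin heterodimers. Humans have several genes, called isotypes, for each kind, and the isotypes differ mainly in the acidic tail at the end of the protein and in the tissues that use them. Gamma tubulin does not enter the wall of the polymer but forms the ring that starts new microtubules at the centrosome, and stathmin binds free dimers and promotes shrinkage of the polymer until mitotic kinases phosphorylate it. Cells also control the level of tubulin mRNA from the supply of free dimer: when dimer is abundant, the factor TTC5 recognises the first residues of a tubulin chain as it leaves the ribosome, and the mRNA is degraded. The bases that encode those residues are shown here because the encoded start is shared among alpha tubulins and among beta tubulins, and differs in TUBG1 and STMN1. The first 12 coding bases were read from the GENCODE release 29 transcripts of GRCh38. The start codon is in lower case and the following codons are in capitals.
TUBA1A, TUBA1B and TUBA1C: atgCGTGAGTGC
TUBA4A: atgCGTGAATGC
TUBB: atgAGGGAAATC
TUBB3 and TUBB6: atgAGGGAGATC
TUBB2A: atgCGCGAGATC
TUBG1: atgCCGAGGGAA
STMN1: atgGCTTCTTCT

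Across TUBA1A, TUBA1B and TUBA1C, 3 neighbouring genes of chromosome 12, these bases were identical. TUBA1B (GRCh38 chr12:49127782-49131397, minus strand) and TUBA1A (chr12:49184796-49189324, minus strand) have 4 exons each, and the annotated span of TUBA1C (chr12:49188736-49274603, plus strand) overlaps the start of TUBA1A on the other strand. TUBA4A (chr2:219249711-219278170, minus strand) overlaps STK16 and TUBA4B on the opposite strand. The beta members lie at chr6:30720201-30725426 (TUBB, plus strand), chr6:3153669-3157526 (TUBB2A, minus strand), chr16:89921392-89938761 (TUBB3, plus strand) and chr18:12307669-12344320 (TUBB6, plus strand). TUBG1 (chr17:42609676-42615234, plus strand) has 11 exons, and STMN1 (chr1:25884181-25906991, minus strand) has 5.

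The shared sequence bears on how far tags can be told apart. Of the 20-base windows in the last 500 bases of the transcript, where DGE tags usually arise, the share also present in transcripts of other genes was 66.7% for TUBA1B, 42.8% for TUBA1A and 29.5% for TUBA1C, and 0% for TUBA4A. For the beta members it was 7.90% for TUBB, 58.8% for TUBB2A, which shares all of it with TUBB2B, and 0% for TUBB6. For TUBB3 it was 99.0%, because a readthrough transcript, AC092143.1, contains the same end on the same strand. It was 31.0% for TUBG1, most of it with TUBG2, and 3.33% for STMN1. The gene sharing most of these windows was TUBAP2 for TUBA1B (52.2%) and TUBA1B for TUBA1A (38.0%). For TUBA1C it was GABPB1-AS1, which is not a tubulin gene, at 8.73%. The tag site, tag length and strand setting of the counting are not given in the sources used here. Values of TUBA1A, TUBA1B, TUBA1C, TUBB2A, TUBB3 and TUBG1 are therefore uncertain to the extent that tags were split between genes that share sequence.

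Both libraries were dominated by the same alpha isotype. In the shRNA-Con library the order of levels, in CPM (tags per 1000000 gene tags), was TUBA1B at 929, TUBB at 247, TUBG1 at 93.7, STMN1 at 85.9, TUBA1A at 51.6, TUBA1C at 48.2, TUBB6 at 41.7, TUBA4A at 27.3, TUBB3 at 3.04 and TUBB2A at 1.74. DGE counts a tag site and not reads along the whole mRNA, so these levels were not divided by transcript length. Neighbours whose ratio could not be told from 1 within counting error were TUBG1 and STMN1, TUBA1A and TUBA1C, TUBA1C and TUBB6, and TUBB3 and TUBB2A. In the shRNA-SOX2-labelled library, TUBA1B at 1485, TUBB at 229 and TUBG1 at 192 again came first. TUBA1A followed at 151, ahead of STMN1 at 82.6, TUBA4A at 57.3, TUBB6 at 44.4, TUBA1C at 34.4 and TUBB3 at 8.12. There, the neighbours not separated beyond counting error were TUBA4A and TUBB6, and TUBB6 and TUBA1C. TUBB2A had 0 tags, which allows up to 1.43 CPM (3 tags).

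**Figure D1:**
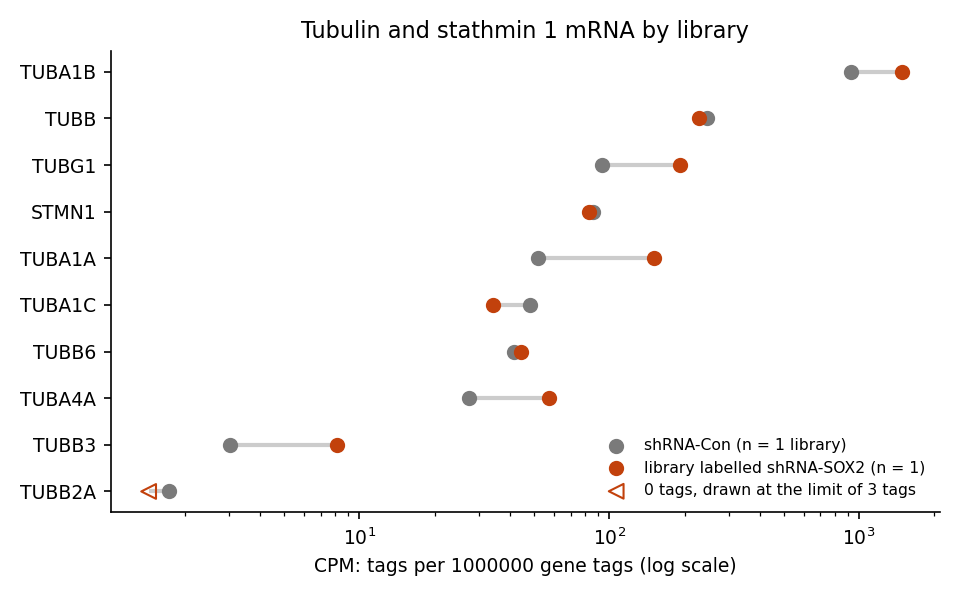
Level of each of the 10 genes in the 2 libraries, in CPM on a log axis, with 1 point per library (grey, shRNA-Con; orange, shRNA-SOX2-labelled library) and an open triangle at the limit of 3 tags for a count of 0. TUBA1B stands highest in both libraries, and the longest lines are those of TUBA1A, TUBB3, TUBA4A and TUBG1.

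Of the 10 genes, 4 were higher in the shRNA-SOX2-labelled library past a false discovery rate (FDR) of 0.001, namely TUBA1A, TUBA1B, TUBA4A and TUBG1, and 0 were lower. Over all 13137 genes, 9.53% were called higher and 12.2% lower by the same two-sided Fisher's exact test, which set the tags of a gene against all other gene tags of the libraries, with Benjamini-Hochberg adjustment over all genes. A log2 fold change of 1 or more was found for 4 of the 10 (TUBA1A, TUBB3, TUBA4A and TUBG1) and of -1 or less for 0. The shares were 12.1% and 13.2% of the 11984 genes with more than 3 tags in a library. The absence of a member at -1 or less rests on the setting of counts below 3 to 3. TUBB2A, with 4 and 0 tags, had -0.28 under that setting and -3.03 with 0.5 added to each count. The median log2 fold change of the 10 genes was 0.38, and that of the 11984 genes was -0.08. Summed tags of the 10 genes were 1529 CPM in shRNA-Con and 2283 CPM in the shRNA-SOX2-labelled library, a ratio of 1.49 (1.43 to 1.56). With 1 library per condition, the test compares these libraries and not the conditions, and fewer cells that express a gene cannot be told apart from less of its mRNA per cell. With a spread between cultures set by hand as a biological coefficient of variation in edgeR's exact test, 2 of the 10 genes passed at a coefficient of 0.1 (TUBA1A and TUBG1), and 0 passed at 0.2 or 0.4. Of all 13137 genes, 1166 passed at 0.1 (512 of them higher), 113 at 0.2 and 0 at 0.4.

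Alpha tubulins gave most of the difference in tags. TUBA1B, the main alpha isotype of dividing cells, had 2140 tags in the shRNA-Con library and 3110 in the shRNA-SOX2-labelled library. Its ratio was 1.60 (95% interval 1.51 to 1.69, counting error only), a log2 fold change of 0.68, with an adjusted p of 5.53e-62 by Fisher's exact test. TUBA1A, the alpha isotype best known from developing neurons, had 119 tags in the shRNA-Con library and 316 in the shRNA-SOX2-labelled library. Its log2 fold change of 1.55 (ratio 2.92, 2.36 to 3.64; Fisher's exact test, adjusted p = 1.12e-24) was the highest of the 10 genes. The third gene of the chromosome 12 group did not pass: TUBA1C had 111 tags in the shRNA-Con library and 72 in the shRNA-SOX2-labelled library, a ratio of 0.714 (0.523 to 0.969; Fisher's exact test, adjusted p = 0.0667). TUBA4A, an isotype abundant in platelets and muscle that ends without the tyrosine found on most alpha tubulins, had 63 and 120 tags. It was 2.10 times higher in the shRNA-SOX2-labelled library (1.53 to 2.89; log2 fold change 1.07; Fisher's exact test, adjusted p = 8.36e-06).

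The other alpha genes with tags were far less abundant. TUBA3C, best known from testis, had 2 tags in the shRNA-Con library and 34 in the shRNA-SOX2-labelled library, a ratio with an interval of 4.80 to 161 and an adjusted p of 2.19e-08 by Fisher's exact test. Of the windows in its last 500 bases, 47.6% occur in other genes, most of them in TUBA3D, so its tags may be shared. TUBA8 had 3 and 4 tags, and TUBA4B had 2 in each library. Summed over the 6 alpha genes counted, the level was 1058 CPM in shRNA-Con and 1746 in the shRNA-SOX2-labelled library (ratio 1.65, 1.57 to 1.74).

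The 250 bases before the RefSeq start (GRCh38.p14) are shown for TUBA1B and TUBG1. These are the called members for which that start lies within 7 bases of the start of the GENCODE transcript compared, so that the windows hold next to no transcribed sequence. Capitals mark matches, searched on both strands, to the CCAAT box (CCAAT), the GC box (GGGCGG), the core of the TATA box (TATA) and a pair of short forms of the element that SOX proteins bind, ACAAT and separately ACAAAG.
TUBA1B, chr12:49131396-49131645, minus strand: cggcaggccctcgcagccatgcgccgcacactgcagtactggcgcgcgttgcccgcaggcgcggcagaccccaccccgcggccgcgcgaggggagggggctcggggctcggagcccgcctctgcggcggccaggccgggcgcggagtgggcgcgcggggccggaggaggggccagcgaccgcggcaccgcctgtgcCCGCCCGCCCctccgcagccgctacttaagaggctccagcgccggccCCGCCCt
TUBG1, chr17:42609433-42609682, plus strand: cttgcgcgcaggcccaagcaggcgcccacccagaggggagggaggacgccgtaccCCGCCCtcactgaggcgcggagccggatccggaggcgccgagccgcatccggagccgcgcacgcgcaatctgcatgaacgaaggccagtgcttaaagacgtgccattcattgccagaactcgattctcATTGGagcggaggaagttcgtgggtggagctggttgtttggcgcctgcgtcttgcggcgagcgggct

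In the TUBA1B window 3 GGGCGG matches were found, of which 2 overlap each other, and none of the other motifs. The TUBG1 window held 1 CCAAT and 1 GGGCGG match. Over the 10 genes, CCAAT was found in 6 windows, GGGCGG in 9, TATA in 5, ACAAT in 2 and ACAAAG in 3. Some of these windows may hold transcribed sequence, because their RefSeq start lay farther from the GENCODE start. The distance was 244 bases for TUBA1A, 182 for TUBB6, 175 for TUBA1C, 151 for TUBB, 114 for TUBA4A and 108 for STMN1. Of the 35116 windows of this length in the table, 32% held CCAAT, 42.6% GGGCGG, 27.1% TATA, 24.6% ACAAT and 13.7% ACAAAG. The 2 genes with ACAAT were STMN1 and TUBB, neither of which passed the threshold. ACAAAG was found for TUBA1A, STMN1 and TUBB. These are matches of letters and not measured binding.

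Beta tubulins among the 10 genes did not pass the threshold. TUBB, the general beta isotype, had 569 tags in the shRNA-Con library and 479 in the shRNA-SOX2-labelled library. Its ratio of 0.926 had an interval of 0.819 to 1.05 (Fisher's exact test, adjusted p = 0.356), so both higher and lower levels lie within counting error. TUBB6, an isotype found at low levels in many tissues, had 96 and 93 tags. Its ratio was 1.07 (0.793 to 1.43; Fisher's exact test, adjusted p = 0.778), and its log2 fold change of 0.09 turned to -0.021 when libraries were scaled by their clean tags. TUBB3, the neuronal beta isotype that is also studied in taxane-resistant carcinoma, had 7 tags in the shRNA-Con library and 17 in the shRNA-SOX2-labelled library. Its log2 fold change was 1.42, but at these counts the interval of the ratio ran from 1.05 to 7.62 and the adjusted p was 0.0637 by Fisher's exact test. TUBB2A had 4 tags and 0 tags, a difference not detectable at this depth.

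The beta gene with the most tags, TUBB4B, is not one of the 10, and 40.1% of the windows in its last 500 bases occur in other genes, 28.5% in TUBB2A. It had 752 tags in the shRNA-Con library and 1371 in the shRNA-SOX2-labelled library, and its ratio was 2.01 (1.83 to 2.20; Fisher's exact test, adjusted p = 1.02e-53). TUBB4A, an isotype of brain, had 5 and 19 tags (log2 fold change 2.06; Fisher's exact test, adjusted p = 0.00700). TUBB2B had 16 and 12 tags. Over the 7 beta genes with tags, 1 was called higher and 0 lower, beside 9.53% and 12.2% of all genes. The summed level of the 7 beta genes was 629 CPM in shRNA-Con and 951 in the shRNA-SOX2-labelled library (ratio 1.51, 1.41 to 1.62). The number of alpha tubulin tags per beta tubulin tag was 1.68 (1.58 to 1.80) in shRNA-Con and 1.84 (1.74 to 1.94) in the shRNA-SOX2-labelled library. These intervals overlap, but overlap does not exclude a difference beyond counting error, which was not tested.

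Gamma tubulin was higher. TUBG1, the main gamma tubulin of most tissues, had 216 tags in the shRNA-Con library and 401 in the shRNA-SOX2-labelled library (ratio 2.04, 1.73 to 2.42; log2 fold change 1.03; Fisher's exact test, adjusted p = 9.47e-17). Its near-identical neighbour TUBG2 had 101 and 211 tags, with a log2 fold change of 1.20 (Fisher's exact test, adjusted p = 1.57e-11). The number of TUBG1 tags per TUBG2 tag was 2.14 (1.68 to 2.74) in shRNA-Con and 1.90 (1.60 to 2.26) in the shRNA-SOX2-labelled library. Delta and epsilon tubulin serve the triplet microtubules of centrioles. TUBE1 was lower, at 110 tags in the shRNA-Con library and 45 in the shRNA-SOX2-labelled library (log2 fold change -1.15; Fisher's exact test, adjusted p = 2.32e-05), and TUBD1 had 32 and 16 tags (Fisher's exact test, adjusted p = 0.128).

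Stathmin 1 mRNA did not pass the threshold. STMN1 had 198 tags in the shRNA-Con library and 173 in the shRNA-SOX2-labelled library, with a ratio of 0.962 and an interval of 0.780 to 1.19 (Fisher's exact test, adjusted p = 0.816). Its log2 fold change of -0.06 turned to 0.016 with TMM scaling and 0.014 with median-ratio scaling. STMN1 tags per alpha and beta tubulin tag were 0.0509 (0.0439 to 0.0588) in shRNA-Con and 0.0306 (0.0262 to 0.0356) in the shRNA-SOX2-labelled library, and these intervals do not overlap. Another stathmin, STMN3, which is best known from neurons and is attached to Golgi membranes, had 16 tags in the shRNA-Con library and 196 in the shRNA-SOX2-labelled library (log2 fold change 3.75; ratio interval 8.10 to 24.1; Fisher's exact test, adjusted p = 8.31e-43). In the last 500 bases of the transcript, 1.04% of 20-base windows of STMN3 occur in other genes.

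**Figure D2:**
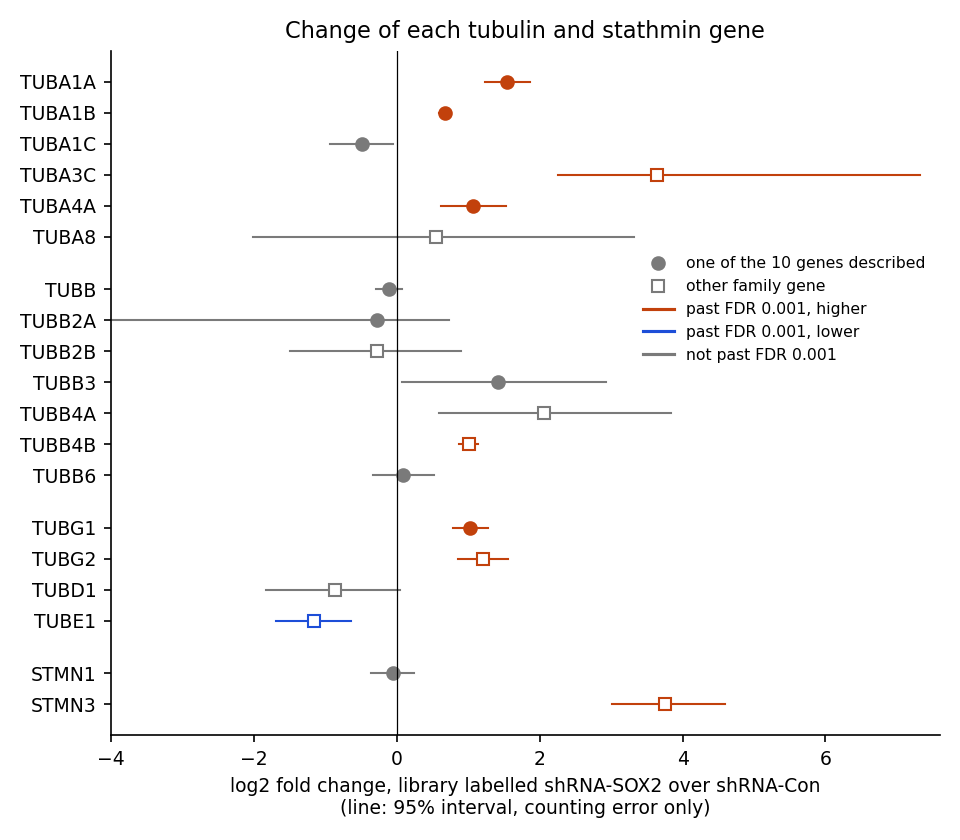
Log2 fold change (shRNA-SOX2-labelled library over shRNA-Con) of each tubulin and stathmin gene with a fold, filled circles for the 10 genes and open squares for others, with 95% intervals from counting error only; the interval of TUBB2A runs past the left edge because its count is 0 in 1 library. Orange marks genes higher and blue the gene lower past FDR 0.001, and STMN3 (3.75) and TUBA3C (3.64) lie farthest to the right.

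The isotype make-up of each pool does not depend on how libraries are scaled. TUBA1B held 87.8% of alpha tubulin tags in shRNA-Con (95% Clopper-Pearson interval 86.4 to 89.1) and 85.1% in the shRNA-SOX2-labelled library (83.9 to 86.2). The TUBA1A share was 4.88% (4.06 to 5.81) in shRNA-Con and 8.64% (7.75 to 9.60) in the shRNA-SOX2-labelled library. For TUBA1C the shares were 4.55% (3.76 to 5.46) and 1.97% (1.54 to 2.47). TUBA1A and TUBA1C were thus near parity in shRNA-Con, at 1.07 TUBA1A tags per TUBA1C tag (0.821 to 1.40), and 4.39 to 1 in the shRNA-SOX2-labelled library (3.39 to 5.75). The TUBA4A share was 2.58% and 3.28%, with overlapping intervals, and their difference was not tested.

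Among beta tubulins the largest shifts of share were those of TUBB4B and TUBB. TUBB4B held 51.9% of beta tags in shRNA-Con (49.3 to 54.5) and 68.9% in the shRNA-SOX2-labelled library (66.8 to 70.9). TUBB held 39.3% (36.7 to 41.8) and 24.1% (22.2 to 26.0) in the same order. The tags of TUBB itself (569 and 479) did not differ past the threshold, while those of TUBB4B (752 and 1371) were higher. TUBB6 held 6.63% and 4.67%, and TUBB3 0.483% and 0.854%, each with overlapping intervals, and these differences were not tested. In the stathmin family STMN1 held 92.5% of the tags in shRNA-Con (88.1 to 95.7) and 46.9% in the shRNA-SOX2-labelled library (41.7 to 52.1), the rest being STMN3. Here too the tags of STMN1 (198 and 173) did not differ past the threshold, while those of STMN3 (16 and 196) were higher. These shares were not compared between replicates, since there are none.

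**Figure D3:**
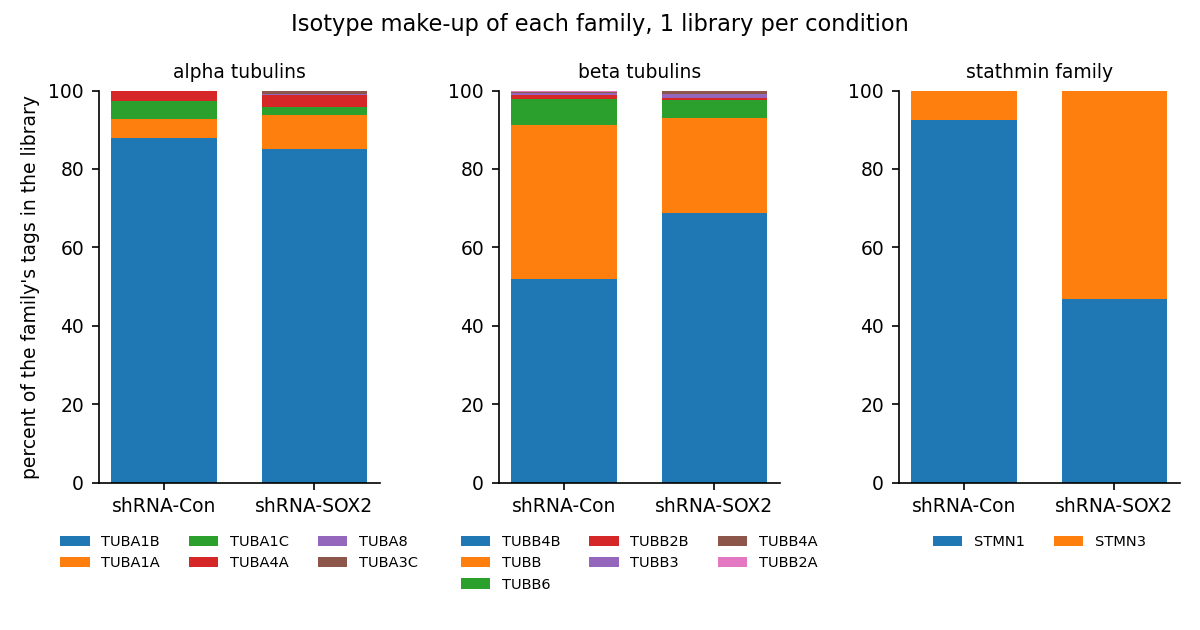
Share of each gene in the tags of its family, in percent, for alpha tubulins, beta tubulins and the stathmin family, with 1 stacked bar per library. TUBB4B takes 51.9% of beta tubulin tags in the shRNA-Con bar and 68.9% in the bar of the shRNA-SOX2-labelled library, and STMN1 takes 92.5% and 46.9% of stathmin tags.

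**Figure D4:**
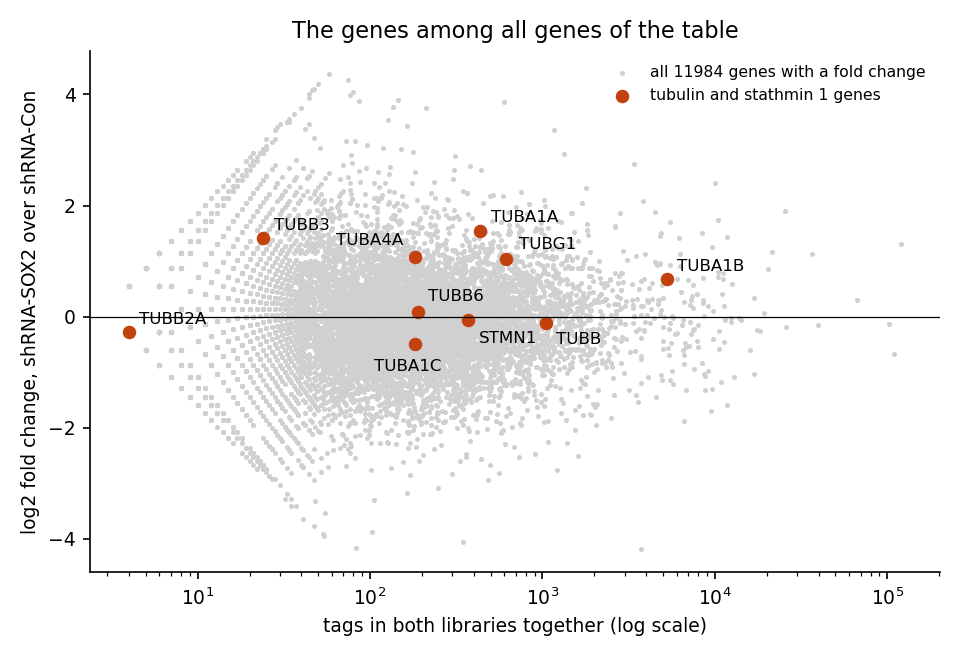
Log2 fold change of the 11984 genes with a fold (grey) against their tags in both libraries together, on a log axis, with the 10 genes in orange. TUBA1B (0.68) is among the most abundant genes, TUBB2A and TUBB3 lie where single tags set visible steps, and the remaining members lie within the main cloud of points.

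Other genes that fold, modify, carry or bind tubulin moved in both directions. Of 103 genes in 10 lists, 9 were higher and 17 lower (beside 9.53% and 12.2% of all genes) and 77 did not pass, with a median log2 fold change of -0.15 over the 96 with a fold. The split was 12 higher and 11 lower with TMM scaling, and 8 higher and 20 lower with clean-tag scaling. Folding of a tubulin dimer begins in the cytosolic chaperonin CCT, to which prefoldin hands the nascent chain. Among the 8 CCT subunits, TCP1 (661 and 864 tags in the shRNA-Con library and the shRNA-SOX2-labelled library) and CCT2 (1065 and 1180) were higher and 4 were lower, led by CCT7 (224 and 133), CCT8 (295 and 182) and CCT5 (1041 and 702). In prefoldin PFDN5 was higher (474 and 656 tags), PFDN2 was lower (531 and 207), and 4 subunits did not pass. The list of tubulin folding cofactors held 7 genes, counting ARL2 and TBCEL. Of these, TBCB, which binds alpha tubulin, was higher (1119 and 1763 tags, log2 fold change 0.79). TBCE, its partner, was lower (155 and 84), as was ARL2, a small GTPase that works with the cofactors (210 and 121).

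The ring complex that holds gamma tubulin had 9 other genes with tags. Of these, 0 were higher and 2 lower, beside 9.53% and 12.2% of all genes, so the counts are near those shares. TUBG1 and TUBG2 were higher. MZT1, a small subunit of the complex, had 276 tags in the shRNA-Con library and 90 in the shRNA-SOX2-labelled library (log2 fold change -1.48; Fisher's exact test, adjusted p = 4.78e-18). NEDD1, which brings the complex to the centrosome, had 92 and 36 tags (log2 fold change -1.22; Fisher's exact test, adjusted p = 4.86e-05). The 5 TUBGCP subunits had log2 fold changes from -0.68 to 0.60, and none passed.

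Of 14 genes listed as structural microtubule-associated proteins 0 were higher and 4 lower, beside 9.53% and 12.2% of all genes. Over the 12 with a fold the median was -0.52, with 9 below 0 and 3 above. Those above included MAP4 (log2 fold change 0.29) and MAP1S (0.82), which did not pass. Among the genes of this list past the threshold, the 3 largest decreases were those of MTUS1 (441 tags in the shRNA-Con library and 170 in the shRNA-SOX2-labelled library), MAP7D1 (225 and 104) and MAP1B (1066 and 594). The other was MAP1LC3B (655 and 368), which, like MAP1LC3A in the same list, is not a structural protein of the polymer. Among 11 plus-end tracking proteins, which ride on growing ends, MAPRE1 was higher (299 and 405 tags) and CLIP1 lower (564 and 364). None of 9 severing and depolymerising proteins passed. Of 17 enzymes that modify tubulin, 1 passed: HDAC6, the alpha tubulin deacetylase, was higher (85 and 140 tags; log2 fold change 0.86).

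Of 20 genes of transport motors 3 were higher and 3 lower, beside 9.53% and 12.2% of all genes. The higher ones were the dynein chains DYNLL2 (44 tags in the shRNA-Con library and 99 in the shRNA-SOX2-labelled library) and DYNC1LI2 (304 and 528) and the kinesin KIF1C (165 and 249). KIF5B, the heavy chain of kinesin-1 (711 and 402), KIF3B (269 and 157) and the dynein chain DYNC1LI1 (384 and 254) were lower. The tubulin autoregulation factors, named here after their values were seen, did not pass: TTC5 had 14 tags in the shRNA-Con library and 11 in the shRNA-SOX2-labelled library, and SCAPER had 21 and 6.

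**Figure D5:**
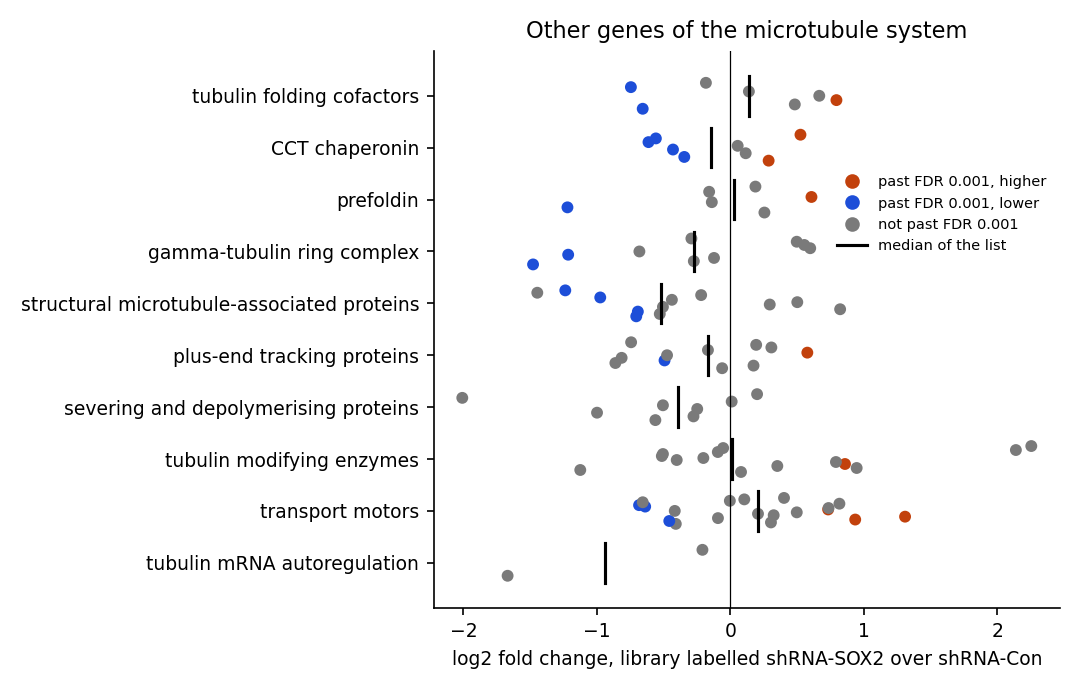
Log2 fold change (shRNA-SOX2-labelled library over shRNA-Con) of each gene in 10 lists of the microtubule system, with orange points higher and blue points lower past FDR 0.001, grey points not past it, and a black bar at the median of each list. The bars lie between -0.94 for the 2 autoregulation genes and 0.21 for transport motors.

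Levels of some tubulin and stathmin mRNAs can change with cell division, so genes of DNA replication and mitosis are given beside them. Of 17 proliferation genes 4 were higher in the shRNA-SOX2-labelled library and 2 lower, beside 9.53% and 12.2% of all genes. The higher ones were led by MCM4 (38 tags in the shRNA-Con library and 83 in the other), TYMS (227 and 436) and MCM2 (57 and 97). TOP2A (661 and 314) and CCNB1 (log2 fold change -0.69), which peak at the G2 phase and mitosis, were lower, and 11 did not pass. Their summed level was 1235 CPM in shRNA-Con and 1264 in the shRNA-SOX2-labelled library, with a median log2 fold change of -0.04. The part of proliferation in the tubulin values was not tested.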

How the data were processed

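DGE tags of oligo(dT)-selected mRNA were counted per gene by the authors and deposited as raw counts, with 1 library per condition. The authors' deposited TPM is the count scaled to 1000000 clean tags of the library. It was used here only to recover the clean tags (3456234 in the shRNA-SOX2-labelled library, 3516266 in shRNA-Con), of which 60.6% and 65.5% fell on genes. The submitters' processing notes name hg19; aligner, annotation and tag enzyme are not given in the sources used here. The deposited log2 ratio, p-value and FDR columns hold the authors' own comparison and were not used.

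Counts were divided by the total of gene tags, and a count below 3 was set to 3 for fold changes. No fold was computed where both counts were 3 or fewer. The test was Fisher's exact test, two-sided, applied gene by gene and adjusted by Benjamini-Hochberg over 13137 genes at FDR 0.001, since a model with a spread between replicates could not be fitted. Intervals are 95% Clopper-Pearson intervals and, like the limit of 3 tags, cover counting error only. Tags on rows without a symbol were 0.0372% and 0.0535% of the totals and were kept in them. Alternatives were TMM (edgeR 4.0.16), median-ratio (DESeq2 1.42.0) and clean-tag scaling, a minimum of 10 tags, edgeR's exact test at a preset biological coefficient of variation (0.1, 0.2 or 0.4), FDR 0.05, 0.5 added to each count, and shares over the members alone. Python 3.11.15, scipy 1.17.1 and R 4.3.3 were used.

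Named genes were all 10 members, every other tubulin or stathmin gene with tags, and the 3 largest increases and decreases past FDR 0.001 in each further list. MAP4, MAP1S, MAP1LC3A and MAP1LC3B were named besides, to describe what their list holds. SOX2 and the cell type markers with tags were also named. The members and lists were chosen with earlier results of these data known. The test was run on data simulated with 200 changed genes and counting error only, so that run does not bear on the spread between cultures. Sequences came from GENCODE release 29 (GRCh38) and from the RefSeq promoter windows of GRCh38.p14, where all 10 members were matched.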

Additional observations from a re-analysis of the deposited data

How the results depend on the processing

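No paired analysis was possible because there was 1 library for either hairpin, so no replicate could be left out either. Counts of calls moved most with an assumed spread between cultures. With edgeR's exact test at a coefficient of variation of 0.1, 0.2 and 0.4, 1166, 113 and 0 genes of the whole table passed FDR 0.001, against 2849 with counting error only, and 4902 passed FDR 0.05. The same settings gave 2, 0 and 0 of the 10 genes, against 4, and 4, 0 and 0 genes of the other microtubule lists, against 26, and 44 at FDR 0.05. At an unadjusted p under 0.05, coefficients of 0.2 and 0.4 left 3 and 0 of the 10 genes, 11 and 1 of the other lists, and 2481 and 627 of the whole table.

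Scaling left 4 of the 10 genes called under TMM, the median ratio and clean tags. It moved every log2 fold change by 0.07, 0.07 and -0.11, and the share of calls that were lower went from 56.1% to 49.4%, 49.7% and 66.6%. With clean tags 2 of the 10 genes, against 4, had a log2 fold change of at least 1. STMN1 changed sign to 0.016 with TMM and 0.014 with the median ratio, and TUBB6 to -0.021 with clean tags. When beta shares were taken over the members alone, without TUBB4B, TUBB held 84.2% and 81.3% in shRNA-Con and the shRNA-SOX2-labelled library, TUBB3 1.04% and 2.89%, and TUBB6 14.2% and 15.8%.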
